A study of Mus musculus with 8 samples.

Results

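The 10 genes described here encode the variant forms of Polycomb repressive complex 1 (PRC1) and its RING catalytic subunits: Rnf2, Ring1, Rybp, Yaf2, Pcgf1, Pcgf3, Pcgf5, Pcgf6, Kdm2b and Bcor. They were chosen by name, through the Ensembl identifiers of a table of 55401 genes, and each symbol matched 1 row. All 10 passed the filter on low counts, as did 24005 genes in all. The counts came from RNA sequencing of mouse prospermatogonia, fetal germ cells of the male that have stopped dividing, at E17.5. Of the 8 libraries, all in 1 batch per the labels, 4 are labelled KO (Tet1-/-, KO 1 to KO 4) and 4 are labelled WT (Tet1+/+, WT 1 to WT 4). The sources used here give neither the design of the Tet1 allele, the mouse strain nor the way the cells were isolated. Nor do they say whether each library came from a separate animal, so the p-values below measure the spread between libraries, which may be technical.

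PRC1 is a ubiquitin ligase that marks histone H2A with a single ubiquitin, a sign of silenced promoters. Its catalytic core is RING1 or RNF2 bound to a PCGF protein. Canonical PRC1 holds a CBX protein that reads H3K27 methylation, whereas variant PRC1 holds RYBP or its paralogue YAF2 in its place and deposits most of the H2A mark in mouse embryonic stem cells. PCGF1 joins KDM2B and BCOR in a complex that binds unmethylated CpG islands, PCGF3 and PCGF5 form a pair of closely related complexes, and PCGF6 works with MGA, MAX, E2F6 and L3MBTL2 on germline genes. In female mouse primordial germ cells, loss of RNF2 is known to bring on early expression of Stra8, the gene that marks entry into meiosis.

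Library totals ran from 13820764 to 20115250 counts, and every one of the 10 genes had between 114 and 3661 counts in each library. The germ cell identity of the samples was plain from its markers: 10 germ cell genes, led by the piRNA pathway gene Piwil2, summed to between 2279 and 2821 CPM (the count relative to library size, with TMM scaling between libraries) in libraries labelled KO, and to between 2249 and 2596 CPM in those labelled WT. Library KO 4 stood apart. Its 6 Leydig cell genes summed to 1803 CPM, against 14.9 to 22.7 CPM in KO 1 to KO 3 and 16.5 to 32.5 CPM in the libraries labelled WT, and its Sertoli cell genes to 95.8 CPM, against 25.2 to 26.2 CPM in KO 1 to KO 3 and 16.5 to 29.0 CPM in those labelled WT. The steroid synthesis gene Cyp17a1 alone had 862 CPM in KO 4, against 1.55 to 4.70 CPM in KO 1 to KO 3 and 0.292 to 6.16 CPM in the libraries labelled WT. The highest gene of the Sertoli list, Inha, averaged 16.3 CPM in libraries labelled KO and 1.42 CPM in those labelled WT. A single gene can thus make up much of the Sertoli sum, and whether Sertoli cells were present in KO 4 was not tested. Interstitial genes summed to 87.2 to 109 CPM in libraries labelled KO and 85.5 to 102 CPM in those labelled WT, and endothelial genes to 55.9 to 69.8 CPM under KO and 57.1 to 68.8 CPM under WT. Macrophage genes summed to 6.18 to 11.4 CPM in libraries labelled KO and 11.1 to 13.8 CPM in those labelled WT, and erythroid genes to 12.7 to 20.9 CPM under KO and 17.9 to 22.8 CPM under WT. Sums can hide genes that moved apart. At an adjusted p under 0.05 (edgeR), 5 of 10 germ cell genes were higher in libraries labelled KO and 2 lower. The counts were 3 and 1 of 7 Sertoli, 2 and 1 of 7 interstitial, and 1 and 3 of 5 endothelial genes. They were 0 and 3 of 5 macrophage, 1 and 1 of 5 erythroid, and 5 and 0 of 6 Leydig genes, whose sum was high in KO 4 only. In each of the endothelial, macrophage, erythroid and Leydig lists 1 gene was removed by the low-count filter and not tested. Pecam1, the highest endothelial gene, averaged 30.5 CPM under KO and 15.3 CPM under WT. Over all genes tested 25.3% were higher and 28.2% lower. No marker of any of these lists was at 0 in all 8 libraries. What part such cells play in the differences was not tested. Counts of members and of the lists of genes that act with or under variant PRC1 are also given without KO 4. Marker counts are given with all 8 libraries only.

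The targeted gene went against the labels. Tet1 (chromosome 10, 62804570 to 62908996, minus strand, GRCm38) had 129, 145, 75.8 and 147 CPM in KO 1 to KO 4, against 30.3, 30.2, 32.8 and 34.2 CPM in WT 1 to WT 4, a log2 difference of 1.97 (SE 0.178, edgeR adjusted p = 3.03e-06). Counts summed over a gene do not show whether a deleted exon was read. All directions therefore follow the deposited labels.

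Of the 10 genes, 6 rose in the libraries labelled KO (Rnf2, Ring1, Yaf2, Pcgf1, Pcgf3 and Pcgf6), 1 fell (Pcgf5), and 3 did not pass (Rybp, Kdm2b and Bcor), at an adjusted p under 0.05. Over all 24005 genes 53.5% passed, 25.3% as higher and 28.2% as lower. The median log2 difference was 0.53 over the 10 genes and -0.05 over all genes tested. The 10 genes are of medium to high abundance, and of the 9002 genes within their range of mean abundance 44.6% passed as higher and 19.7% as lower (median 0.26). Read against those shares, the count of 6 higher and 1 lower is not far from what genes of like abundance showed. For 5 members every library labelled KO lay above every library labelled WT, and for 1 below, which held for 23.2% and 25.1% of all genes. In bulk RNA a change in the cells sampled and a change in RNA per cell cannot be told apart. With upper-quartile scaling, which shifted the median of all genes by -0.24, 3 of the 10 were higher (Rnf2, Pcgf3 and Pcgf6) and 1 lower, and the share of calls that were higher over all genes was 31.2%, against 47.3% with TMM. Without KO 4 the count was 6 higher and 1 lower, with log2 differences of 0.84 for Rnf2, 0.74 for Ring1, 0.70 for Pcgf1 and 0.78 for Pcgf6, and 0.34, 0.16 and 0.14 for Rybp, Kdm2b and Bcor, which did not pass.

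**Figure D1:**
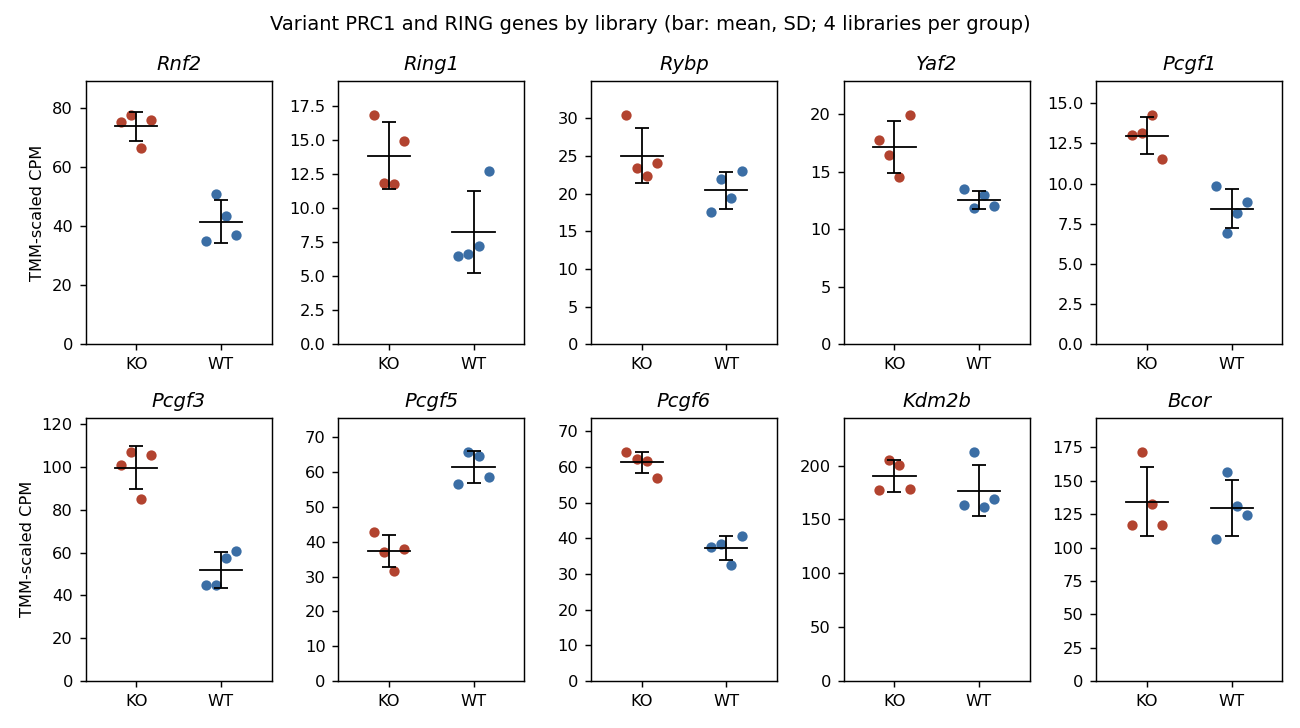
Level of each gene in TMM-scaled CPM (vertical axes, from 0) in the 4 libraries labelled KO (left) and the 4 labelled WT (right), with points for libraries and bars for the mean and SD. The groups separate for Rnf2, Yaf2, Pcgf1, Pcgf3 and Pcgf6 (KO above) and for Pcgf5 (KO below), and overlap for Ring1, Rybp, Kdm2b and Bcor.

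The catalytic subunits were both higher. RNF2 (also RING1B) is the main H2A ubiquitin ligase of mouse embryonic stem cells, and RING1 (RING1A) its paralogue. Rnf2 (chromosome 1, 151458004 to 151500955, minus strand) had 75.4, 77.6, 66.6 and 75.9 CPM in KO 1 to KO 4, against 34.9, 51.0, 43.5 and 37.0 CPM in WT 1 to WT 4. Every library labelled KO lay above every one labelled WT, and the log2 difference was 0.83 (SE 0.127, edgeR adjusted p = 0.000152), a 1.78-fold rise with a 95% interval of 1.47 to 2.15. Its exons share 158 bases with Trmt1l on the opposite strand, 3.83% of its exon length, and the strand setting of the counting is not given in the sources used here.

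Ring1 (chromosome 17, 34020792 to 34024680, minus strand) had 16.8, 11.9, 11.8 and 15.0 CPM in KO 1 to KO 4, against 6.45, 6.62, 7.20 and 12.7 CPM in WT 1 to WT 4. Library WT 4 was higher than KO 2 and KO 3, so the groups overlapped. The log2 difference was 0.75 (SE 0.229, edgeR adjusted p = 0.0139), and 1.05 without WT 4. Ring1 lost its call with upper-quartile scaling (0.52, edgeR adjusted p = 0.0711) and with no scaling beyond the total count (0.58, edgeR adjusted p = 0.0508).

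Per kilobase of merged exon, Rnf2 was the more abundant of the pair in every library. The ratio of Ring1 to Rnf2 on this scale was 0.284, 0.194, 0.226 and 0.251 in KO 1 to KO 4, against 0.235, 0.165, 0.211 and 0.438 in WT 1 to WT 4. The groups overlapped, so the balance between the paralogues showed no separation by label. On the log2 scale the ratio averaged -2.08 ± 0.23 (SD, n = 4) in libraries labelled KO and -2.03 ± 0.60 (SD, n = 4) in those labelled WT.

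RYBP and YAF2 take the place that CBX proteins hold in canonical PRC1, and RYBP also binds ubiquitinated H2A. Yaf2 (chromosome 15, 93284278 to 93336935, minus strand) had 17.8, 16.5, 14.5 and 19.9 CPM in KO 1 to KO 4, against 13.5, 11.8, 12.9 and 12.0 CPM in WT 1 to WT 4. The groups did not overlap, but the gap between the lowest library labelled KO and the highest labelled WT was narrow. Over all genes tested the groups did not overlap for 48.4%. Yaf2 rose by 0.45 on the log2 scale (SE 0.143, edgeR adjusted p = 0.0177). This call was lost with upper-quartile scaling (0.21), no scaling beyond the total (0.27), ribosomal protein scaling (0.29) and cyclic loess (0.31), where adjusted p ran from 0.0669 to 0.216 (edgeR, and limma for cyclic loess). Without KO 4 it was near the threshold (0.40, edgeR adjusted p = 0.0486).

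Rybp (chromosome 6, 100228565 to 100287485, minus strand) had 30.4, 23.4, 22.4 and 24.0 CPM in KO 1 to KO 4, against 17.6, 21.9, 19.4 and 23.0 CPM in WT 1 to WT 4. Of the libraries labelled KO, 3 were above the highest labelled WT, and KO 3 was not. The log2 difference of 0.29 did not pass (SE 0.141, 95% interval -0.01 to 0.60, edgeR adjusted p = 0.0960). A processed copy, Rybp-ps on chromosome 13, can share reads with Rybp. It had 6.29, 6.69, 9.30 and 6.04 CPM in KO 1 to KO 4, against 2.00, 3.37, 3.70 and 5.57 CPM in WT 1 to WT 4, a log2 difference of 0.96 (SE 0.281, edgeR adjusted p = 0.0114). With the counts of both added together the log2 difference was 0.41 and passed (SE 0.136, edgeR adjusted p = 0.0205). This sum takes in all counts of Rybp-ps, which passed by itself. Whether any reads were shared between them was not tested. The ratio of Yaf2 to Rybp per kilobase was 1.48 to 2.10 under KO and 1.32 to 1.95 under WT, so the groups overlapped.

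**Figure D2:**
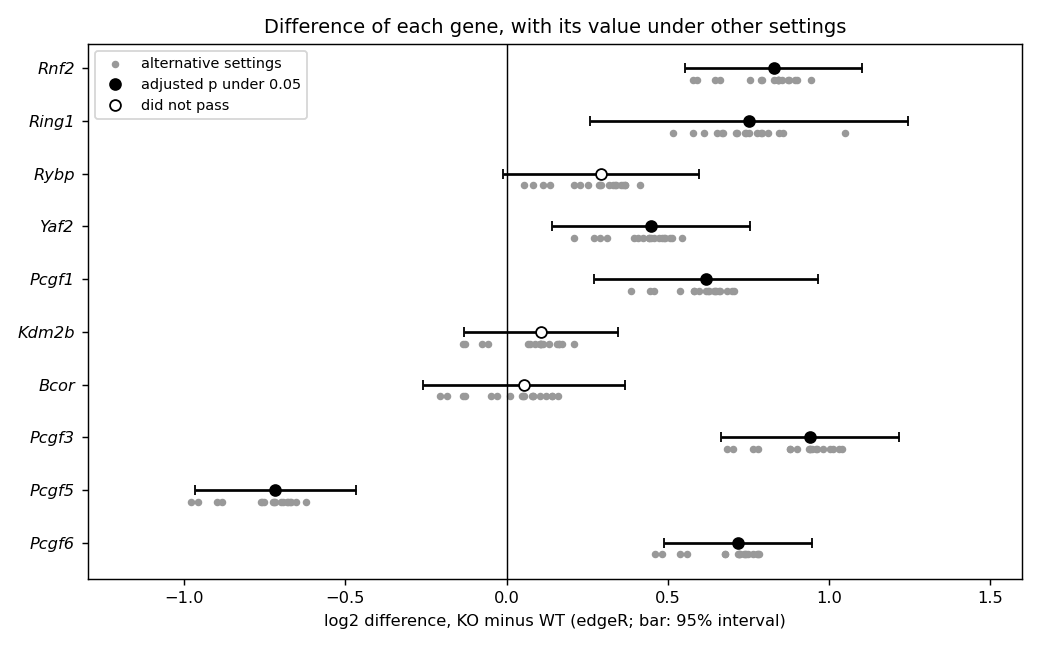
Log2 difference, KO minus WT (horizontal axis), of each gene from edgeR with its 95% interval; filled points passed at an adjusted p under 0.05, open ones did not, and grey points under each are the values under the other settings. Rnf2, Ring1, Yaf2, Pcgf1, Pcgf3 and Pcgf6 stay above 0 and Pcgf5 below 0 in all of these settings, while Kdm2b and Bcor lie on both sides of 0.

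The complex of PCGF1, KDM2B and BCOR is targeted to CpG islands by the zinc finger of KDM2B. Of its 3 genes only Pcgf1 passed. Pcgf1 (chromosome 6, 83077869 to 83080855, plus strand) had 13.1, 13.2, 14.2 and 11.5 CPM in KO 1 to KO 4, against 9.83, 6.91, 8.18 and 8.87 CPM in WT 1 to WT 4. The lowest library labelled KO exceeded the highest labelled WT, and Pcgf1 rose by 0.62 on the log2 scale (SE 0.161, edgeR adjusted p = 0.00579). It lost its call with upper-quartile scaling (0.39, edgeR adjusted p = 0.0638) and ribosomal protein scaling (0.46, edgeR adjusted p = 0.0622).

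Kdm2b (chromosome 5, 122870665 to 122989823, minus strand) encodes the CpG-binding subunit, an H3K36 demethylase. It had 177, 205, 200 and 179 CPM in KO 1 to KO 4, against 164, 213, 162 and 169 CPM in WT 1 to WT 4. The highest library was WT 2, and the other 3 labelled WT lay below all 4 labelled KO. The log2 difference of 0.11 did not pass (SE 0.111, 95% interval -0.13 to 0.34, edgeR adjusted p = 0.442). The interval corresponds to a fold between 0.911 and 1.27. Of its exon length, 5.77% overlaps Rnf34 and 1.83% overlaps A930024E05Rik, both on the opposite strand.

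A count per gene also joins the products of separate Kdm2b starts. The long form of the protein carries the demethylase domain, and a short form made from an internal start lacks it but keeps the CpG-binding zinc finger. The 250 bases before an outer and an inner start (of 4 RefSeq windows for this gene; RefSeq, GRCm38.p6, chr5:122989100-122989349 for the outer and chr5:122900351-122900600 for the inner one, minus strand) are shown because the table cannot divide the Kdm2b count between them, with CpG sites, the letters that KDM2B binds when unmethylated, in capitals.
Kdm2b outer start: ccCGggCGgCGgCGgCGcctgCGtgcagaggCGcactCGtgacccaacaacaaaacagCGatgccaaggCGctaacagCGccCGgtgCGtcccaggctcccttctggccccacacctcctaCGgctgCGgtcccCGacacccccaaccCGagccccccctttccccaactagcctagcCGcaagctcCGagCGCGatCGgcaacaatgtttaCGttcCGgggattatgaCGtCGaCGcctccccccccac
Kdm2b inner start: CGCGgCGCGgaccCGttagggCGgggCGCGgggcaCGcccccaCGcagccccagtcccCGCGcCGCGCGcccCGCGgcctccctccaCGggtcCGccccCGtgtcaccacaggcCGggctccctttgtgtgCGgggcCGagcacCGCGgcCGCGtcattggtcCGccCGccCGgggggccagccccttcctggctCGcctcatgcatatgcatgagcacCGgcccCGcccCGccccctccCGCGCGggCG
The outer window holds 27 CpG sites and the inner one 38. Of 32851 promoter windows of this length 8.56% hold at least 27, and 1.88% hold at least 38.

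Bcor (chromosome X, 12036740 to 12160355, minus strand) encodes the corepressor that joins PCGF1 to KDM2B. Its level was 117, 172, 133 and 117 CPM in KO 1 to KO 4, against 106, 157, 131 and 124 CPM in WT 1 to WT 4. High and low libraries occurred under both labels, with KO 2 and WT 2 the highest. The log2 difference of 0.05 did not pass (SE 0.145, 95% interval -0.26 to 0.37, edgeR adjusted p = 0.779). Both Kdm2b and Bcor were below 0 with upper-quartile, total-count and ribosomal protein scaling, which lowered all genes together. Relative to the median of all genes Kdm2b stayed between 0.15 and 0.16 and Bcor between 0.08 and 0.10 in those 3 settings and with TMM. With cyclic loess the values relative to that median were -0.16 for Kdm2b and -0.23 for Bcor.

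PCGF3 and PCGF5 are paralogues, and in mouse embryonic stem cells their complexes place H2A ubiquitin broadly over the genome and along the inactive X chromosome. Their genes moved in opposite directions. Pcgf3 (chromosome 5, 108461232 to 108506976, plus strand) had 101, 107, 85.3 and 106 CPM in KO 1 to KO 4, against 45.1, 44.7, 57.4 and 60.9 CPM in WT 1 to WT 4. The lowest library labelled KO was well above the highest labelled WT. Pcgf3 rose 1.92-fold (95% interval 1.58 to 2.32), with a log2 difference of 0.94 (SE 0.128, edgeR adjusted p = 6.09e-05), the largest of the 10 genes.

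Pcgf5 (chromosome 19, 36348309 to 36460970, plus strand) had 42.7, 37.2, 31.4 and 38.0 CPM in KO 1 to KO 4, against 56.5, 65.8, 64.7 and 58.7 CPM in WT 1 to WT 4. It was the only member that fell, and no library labelled KO reached the level of any labelled WT. The log2 difference was -0.72 (SE 0.116, edgeR adjusted p = 0.000216), a fold of 0.608 with a 95% interval of 0.511 to 0.723. Both calls and directions held in each of the 18 alternative settings, with log2 differences from 0.68 to 1.04 for Pcgf3 and from -0.98 to -0.62 for Pcgf5. Without KO 4 they were 0.94 and -0.70.

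The ratio of Pcgf3 to Pcgf5 within a library does not depend on library scaling, and was computed after their values were seen. Per kilobase it was 3.13, 3.81, 3.59 and 3.67 in KO 1 to KO 4, against 1.06, 0.899, 1.17 and 1.37 in WT 1 to WT 4. On this scale the level of Pcgf3 was thus more than 3 times that of Pcgf5 in libraries labelled KO. In those labelled WT the levels were about equal. The merged exons of Pcgf5 are long (12629 bases over 11 annotated transcripts), which lowers its level per kilobase if shorter transcripts are the ones made. The fixed merged length cancels in the change of the ratio. Whether the transcripts made differed in length between the labels was not tested.

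The promoters of Pcgf3 and Pcgf5 are shown because these paralogues form closely related complexes and moved apart, and that of Pcgf6 because it moved with Pcgf3. Each line gives the 250 bases before a RefSeq start (GRCm38.p6; chr5:108461009-108461258, plus strand, for Pcgf3; chr19:36348079-36348328, plus strand, for the first of 3 Pcgf5 starts; chr19:47050907-47051156, minus strand, for Pcgf6), with CpG sites in capitals.
Pcgf3: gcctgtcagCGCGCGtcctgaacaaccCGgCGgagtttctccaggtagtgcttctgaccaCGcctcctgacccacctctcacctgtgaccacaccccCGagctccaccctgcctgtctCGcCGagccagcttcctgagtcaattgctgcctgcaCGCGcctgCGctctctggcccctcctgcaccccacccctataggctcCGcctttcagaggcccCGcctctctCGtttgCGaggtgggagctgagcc
Pcgf5: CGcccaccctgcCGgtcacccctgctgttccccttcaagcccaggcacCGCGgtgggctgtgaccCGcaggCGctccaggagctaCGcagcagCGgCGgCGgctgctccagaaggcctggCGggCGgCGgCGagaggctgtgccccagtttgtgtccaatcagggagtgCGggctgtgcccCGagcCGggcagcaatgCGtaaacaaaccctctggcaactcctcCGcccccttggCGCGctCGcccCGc
Pcgf6: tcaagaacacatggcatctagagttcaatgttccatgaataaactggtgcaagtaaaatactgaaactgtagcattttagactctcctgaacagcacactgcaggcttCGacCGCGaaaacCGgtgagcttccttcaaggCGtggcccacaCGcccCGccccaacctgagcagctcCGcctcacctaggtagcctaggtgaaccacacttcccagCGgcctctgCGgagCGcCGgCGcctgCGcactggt
These windows hold 16, 23 and 14 CpG sites, where the median over all promoter windows is 6. Counts this high or higher occur in 25.4%, 13.3% and 29.4% of all windows. The set of windows used here holds 13 windows for 7 of the 10 members. Of these windows 0 hold the E-box CACGTG that MGA and MAX bind, which 6.02% of all windows hold. The E2F element GGCGGGAA, searched on both strands, occurs in 1 of them, at the third Pcgf5 start, and in 1.86% of all windows. Both motifs contain a CpG site. These are letter matches only and show no binding.

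PCGF6 is the PCGF protein of the complex that represses germline and meiotic genes outside the germ line. Pcgf6 (chromosome 19, 47033617 to 47050906, minus strand) had 64.2, 62.1, 61.8 and 57.0 CPM in KO 1 to KO 4, against 37.5, 38.4, 32.5 and 40.7 CPM in WT 1 to WT 4. The libraries labelled KO lay close together and above all labelled WT. Pcgf6 rose 1.64-fold (95% interval 1.40 to 1.93), a log2 difference of 0.72 (SE 0.106, edgeR adjusted p = 0.000112), and passed in all 18 alternative settings (0.46 to 0.78).

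The make-up of the PCGF pool was compared as each gene's share of the summed level of the 6 PCGF genes per kilobase. This adds Pcgf2 and Bmi1, which serve canonical PRC1 and are not among the 10 genes. The share of Pcgf3 was 15.6% ± 1.83 (SD, n = 4) in libraries labelled KO and 10.5% ± 1.72 (SD, n = 4) in those labelled WT. That of Pcgf5 was 4.42% ± 0.64 (SD, n = 4) in libraries labelled KO and 9.37% ± 0.58 (SD, n = 4) in those labelled WT. Pcgf6 made up 18.2% ± 0.88 (SD, n = 4) in libraries labelled KO and 14.3% ± 1.65 (SD, n = 4) in those labelled WT. For these 3 genes the groups did not overlap.

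Pcgf1 held 11.0% to 12.9% in libraries labelled KO and 7.34% to 13.0% in those labelled WT, which overlapped. Per kilobase, Bmi1 was the largest part in every library, with 31.5% to 37.0% in libraries labelled KO and 37.8% to 51.5% in those labelled WT. Its own level hardly differed, at 92.6 ± 11.2 CPM (SD, n = 4) in libraries labelled KO and 90.3 ± 19.9 CPM (SD, n = 4) in those labelled WT (log2 difference 0.04, 95% interval -0.28 to 0.36, edgeR adjusted p = 0.849). Pcgf2 held 14.3% to 16.6% in libraries labelled KO and 10.5% to 14.4% in those labelled WT. Shares add to a whole, so a gene with a steady level loses share when others rise. The first place of Bmi1 rests on the division by length. In CPM, Pcgf3 exceeded Bmi1 in KO 1 (101 against 83.7), KO 2 (107 against 105) and KO 4 (106 against 82.8). Bmi1 was the higher in KO 3 and in every library labelled WT.

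**Figure D3:**
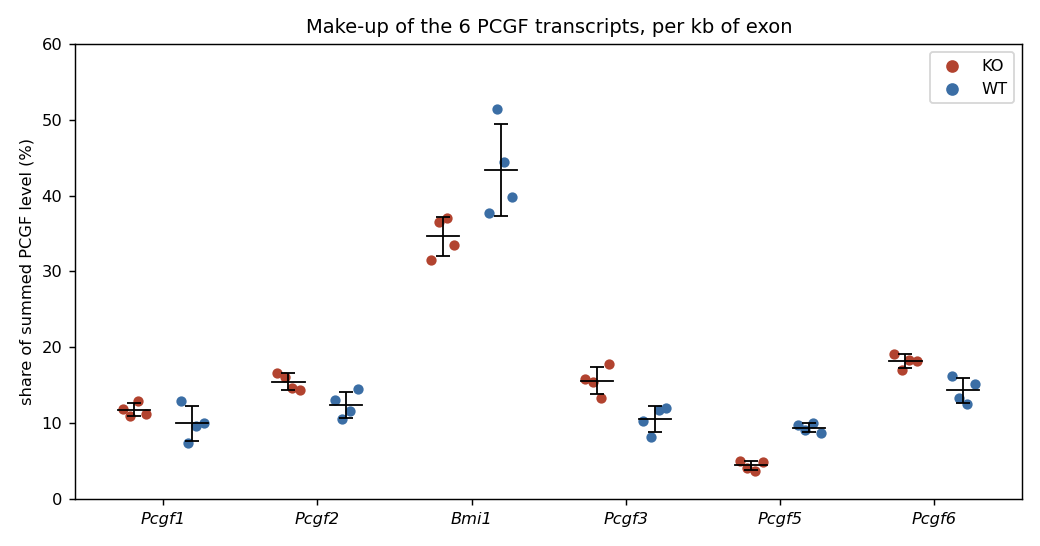
Share of each PCGF gene (vertical axis, percent) in the summed per-kilobase level of the 6 PCGF genes, with points for the 4 libraries labelled KO (left of each pair) and the 4 labelled WT (right) and bars for the mean and SD. Pcgf3 and Pcgf6 hold larger shares in libraries labelled KO, and Pcgf5 and Bmi1 smaller ones.

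Levels per kilobase allow genes to be compared, but they rest on merged exon length and understate a gene made mostly as short transcripts. In libraries labelled KO the order was Rnf2 (17.9 ± 1.20 CPM per kilobase, SD, n = 4), Kdm2b (16.3 to 18.9 over libraries), Bcor (15.5 ± 2.98), Pcgf6 (12.2 ± 0.61), Pcgf3 (10.5 ± 1.04), Yaf2 (9.17 ± 1.20), Pcgf1 (7.88 ± 0.68), Rybp (5.29 ± 0.77), Ring1 (4.28 ± 0.76) and Pcgf5 (2.96 ± 0.36). In libraries labelled WT it was Kdm2b (16.3 ± 2.21 CPM per kilobase, SD, n = 4), Bcor (15.0 ± 2.41), Rnf2 (10.1 ± 1.75), Pcgf6 (7.41 ± 0.69), Yaf2 (6.72 ± 0.42), Pcgf3 (5.45 ± 0.88), Pcgf1 (5.12 ± 0.74), Pcgf5 (4.86 ± 0.36), Rybp (4.32 ± 0.52) and Ring1 (2.55 ± 0.93). Rnf2, Kdm2b and Bcor at the top of the KO order lie within their spread of each other, as do Kdm2b and Bcor in the WT order and the 3 PCGF genes near its lower end. The last place of Pcgf5 in the libraries labelled KO rests on its long merged exons. Over all genes tested the members stood between the 58.4 percentile (Ring1) and the 89.0 percentile (Kdm2b) of mean level per kilobase.

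Genes that act with the variant complexes were counted from lists that hold no member. Of 19 partners, 12 rose, 3 fell and 4 did not pass, with a median log2 difference of 0.49. Over all genes tested 25.3% passed as higher and 28.2% as lower (median -0.05). Among genes in the abundance range of the 10 members these shares were 44.6% and 19.7% (median 0.26). Most genes of this list and of those below lie within or above that range. No list was compared with genes matched to its own abundance. With upper-quartile scaling 9 partners were higher and 4 lower (median 0.25), and with cyclic loess 10 and 4 (median 0.23). Hdac1, a histone deacetylase of the PCGF6 complex, had 85.5 ± 8.08 CPM (SD, n = 4) in libraries labelled KO and 40.6 ± 2.70 CPM (SD, n = 4) in those labelled WT (log2 difference 1.07, edgeR adjusted p = 6.03e-06). Usp7, the deubiquitinase of the PCGF1 complex, rose by 0.92 and Tfdp1, the dimer partner of E2F proteins, by 0.60. The 3 that fell were Skp1a (-0.39), Auts2 (-0.43) and E2f6 (-0.42). Skp1a encodes a PCGF1 complex subunit, Auts2 a PCGF3 and PCGF5 partner, and E2f6 a DNA-binding subunit of the PCGF6 complex. None of these 3 passed without KO 4 or without WT 3 (edgeR adjusted p from 0.0548 to 0.0832), at log2 differences between -0.39 and -0.30, and the count of higher partners was 12 in both cases.

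Canonical PRC1 genes split evenly, with 3 of 12 higher, 3 lower and 6 not passing (median 0.07), and 2 higher and 2 lower without KO 4. Cbx2, which reads H3K27 methylation, had 80.1 ± 12.2 CPM (SD, n = 4) in libraries labelled KO and 46.3 ± 7.61 CPM (SD, n = 4) in those labelled WT (log2 difference 0.79, edgeR adjusted p = 0.000473), and Pcgf2 rose by 0.69. The Polyhomeotic genes Phc2 (-0.76) and Phc3 (-0.49) fell, as did Cbx8 (-0.43). The call of Cbx8 was lost in 10 of the 18 other settings, and the median of the list was below 0 with upper-quartile, total-count and ribosomal protein scaling and cyclic loess.

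Of 12 PRC2 genes, whose complex places H3K27 methylation, 8 rose, 2 fell and 2 did not pass (median 0.54). The shares to set beside this are those given above, over all genes and in the abundance range of the members. Without KO 4 the counts were 8 higher and 2 lower. The median was 0.30 with upper-quartile scaling and 0.31 with cyclic loess, with 3 lower in both. Ezh2, the catalytic subunit of dividing cells, had 113 ± 13.6 CPM (SD, n = 4) in libraries labelled KO and 54.5 ± 10.9 CPM (SD, n = 4) in those labelled WT (log2 difference 1.06, edgeR adjusted p = 7.29e-05). Rbbp7 rose by 0.96 and Mtf2 by 0.95. Ezh1, the paralogue of Ezh2 (-0.47), and Eed, a core subunit (-0.53), fell. As with Pcgf3 and Pcgf5, the paralogues Ezh2 and Ezh1 passed with opposite signs. Other paralogues, such as Rnf2 and Ring1 or Phc2 and Phc3, passed with the same sign.

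Of 8 genes that remove ubiquitin from H2A or serve its removal, 3 rose, 1 fell and 4 did not pass (median 0.07), and without KO 4 2 were higher and 1 lower, Mysm1 having lost its call (0.34, edgeR adjusted p = 0.0514). Asxl3, a partner of the deubiquitinase BAP1, fell to 0.505 of its level in libraries labelled WT (log2 difference -0.99, SE 0.104, edgeR adjusted p = 9.68e-06). Usp21 (0.58), Usp16 (0.35) and Mysm1 (0.35) rose, but with upper-quartile, total-count scaling or cyclic loess 1 of the 8 was higher and 4 lower, and the median was below 0.

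The last list held 15 germline and meiotic genes of the kind that the PCGF6 complex holds silent in mouse embryonic stem cells. Of these, 9 rose, 1 fell and 5 did not pass (median 0.67). Over all genes 25.3% were higher and 28.2% lower. In the abundance range of the 10 members these shares were 44.6% and 19.7% (median 0.26). Without KO 4 the counts were 9 and 1, and with upper-quartile scaling and cyclic loess 8 were higher, with medians of 0.44 and 0.39. The list was drawn up with earlier results of these libraries known, so its direction is not independent evidence. Stra8 had 147 ± 63.1 CPM (SD, n = 4) in libraries labelled KO and 14.8 ± 6.87 CPM (SD, n = 4) in those labelled WT (log2 difference 3.30, edgeR adjusted p = 7.72e-06). The meiotic cohesin gene Smc1b rose by 1.95 and the synaptonemal complex gene Sycp3 by 1.44. Mael, which acts in transposon silencing and is also among the germ cell markers, was the gene that fell (-1.13). Pcgf6 and most of these germline genes were thus higher in the same libraries.

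**Figure D4:**
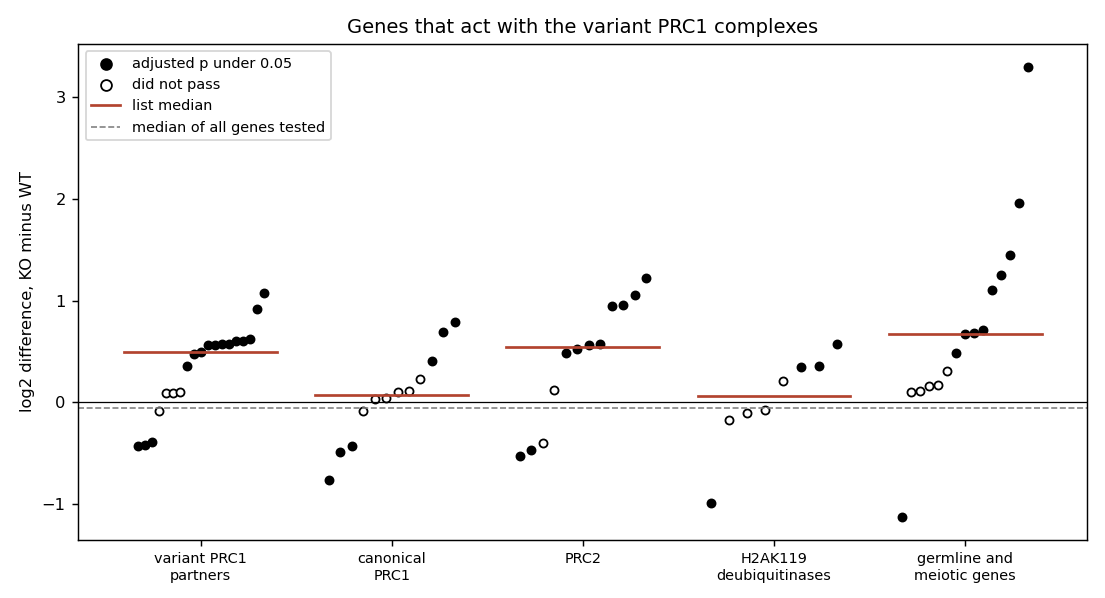
Log2 difference, KO minus WT (vertical axis), of each gene in 5 lists of genes that act with or under variant PRC1; filled points passed at an adjusted p under 0.05, open ones did not, red lines are list medians and the dashed line is the median of all genes tested (-0.05). The partner, PRC2 and germline lists have medians of 0.49, 0.54 and 0.67, and the canonical PRC1 and deubiquitinase lists have medians of 0.07.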

How the data were processed

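Per the labels' protocols, total RNA from snap-frozen cell pellets was depleted of ribosomal RNA and made into libraries from a low input with a kit that carries unique molecular identifiers. The authors deposited 1 table of whole-number raw counts for each gene, not normalized. Tools listed in the submitters' processing notes, without their roles, are DESeq2, edgeR, featureCounts 1.5.0, STAR and Trim Galore, on the mm10 build. The sources used here do not give the strand setting, the annotation release or any collapsing by identifier. Symbols, coordinates and merged exon lengths came from GENCODE M21 (GRCm38, the assembly of mm10), which matched 55141 of 55401 genes.

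Counts were fitted with edgeR 4.0.16 (R 4.3.3) by quasi-likelihood over the whole table, after filterByExpr and TMM scaling, with genotype as the only term. Log2 differences were taken as KO minus WT, and p-values were adjusted by Benjamini-Hochberg over 24005 genes. Intervals are 95% intervals from the same fit. Level per kilobase is CPM divided by merged exon length. Alternatives were DESeq2 1.42.0, other scalings (RLE, upper quartile, total count, ribosomal protein genes, and cyclic loess with limma 3.58.1), filters, robust dispersion, a replicate block and leaving out each library. Adding Rybp-ps to Rybp and the Pcgf3 to Pcgf5 ratio were chosen after seeing the data. Promoter windows came from a set of RefSeq starts in which 7 of the 10 members had a window.

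The members and lists were chosen with earlier results of these data known. The genes named are the 10 members, Tet1, and up to 3 passing genes in each direction with the lowest p from each other list, except 1 gene that is not reported here. Library pairs of 1 label differed by more than counting noise (chi-square per degree of freedom 7.34 to 26.5), so no pair was taken for repeat deposits of 1 library. This does not show that they came from separate animals. For some marker lists the highest gene is named too.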

Additional observations from a re-analysis of the deposited data

Results flagged for a closer look

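Of 20 sets of 4 libraries (10 genes under 2 labels), 2 held a library far from the other 3, where chance gives about 1 in 20 sets. Ring1 had 12.7 CPM in WT 4, against 6.45 to 7.20 CPM in the other libraries labelled WT. Kdm2b had 213 CPM in WT 2, against 162 to 169 CPM in the others. Without WT 4 the log2 difference of Ring1 was 1.05 (edgeR adjusted p = 0.000589), against 0.75 with it. Without WT 2 that of Kdm2b was 0.21 (edgeR adjusted p = 0.0890), which did not pass.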

How the results depend on the processing

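Rnf2, Pcgf3, Pcgf5 and Pcgf6 kept their call and direction in all 18 alternative settings. Upper-quartile scaling gave 3 members higher, against 6 with TMM, and total-count scaling, ribosomal protein scaling and cyclic loess gave 4, 4 and 5. Members lower stayed at 1 in each setting. Kdm2b, which did not pass in any, was at -0.13 with upper-quartile, -0.077 with total-count and -0.059 with ribosomal protein scaling and -0.14 with cyclic loess. Bcor was at -0.19, -0.13, -0.13 and -0.21 in the same settings, and between -0.048 and 0.16 when 1 library was left out. The 3 scalings moved the median of all genes by -0.24, -0.18 and -0.16, and relative to it both genes kept their sign. Cyclic loess moved it by 0.071 and turned both signs relative to it; the cause was not tested. Without length division the KO minus WT difference in PCGF share was 10.1 percentage points for Pcgf3 and -11.7 for Pcgf5, against 5.08 and -4.96 per kilobase. A fit with the replicate number as a block gave 6 higher and 1 lower. Deviations of same-numbered libraries correlated at 0.148, -0.213, -0.115 and 0.0147, so the numbers were not taken as pairs. The deposited names of KO 1 and WT 1 share a number, whose meaning the labels do not give. Depth left at least 114 counts per member and library, and libraries of 1 label differed by more than counting noise.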
